A study of Homo sapiens with 8 samples.

Results

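The 53 genes described here build and run the mitotic spindle: the cyclins and kinases that start mitosis, the spindle checkpoint, the centromere and kinetochore, the mitotic kinesins, and the proteins of anaphase, cytokinesis and chromosome condensation. Their mRNAs were measured in the established human melanoma line SK-MEL-5 with 8 Affymetrix arrays, 2 for each of 4 groups. The siMITF cells were transfected with siRNA that targets MITF, a transcription factor of the melanocyte lineage, and the siCtrl cells with a non-targeting siRNA. The THZ1 cells received 250 nM THZ1, a covalent inhibitor of the kinase CDK7, in 25 µM DMSO for 6 h, and the DMSO cells 25 µM DMSO. How long DMSO was applied, when transfected cells were harvested and how many siRNA sequences were used is not stated in the labels. The genes were chosen by name, as a module of mitosis, and the brightest probe set with a sole gene symbol stood for each. Of the 53 genes, 52 had such a probe set, and all 52 were above the filter on dim signals, among 11947 tested genes of 18244 with such a probe set. PTTG1, which encodes the securin that holds separase inactive, had none, since its probe set is also assigned to PTTG3P, and no value is given for it.

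Mitosis begins when cyclin B and CDK1 phosphorylate their targets. The spindle then attaches each chromosome at its kinetochore, and the checkpoint holds the anaphase-promoting complex until every kinetochore is attached. Most mRNAs of this machinery are low in G1 and peak in G2 and M, so a sample with fewer dividing cells carries less of them. Their promoters are typically repressed by the DREAM complex and activated by B-MYB and FOXM1 through a short element called the CHR, often beside CCAAT boxes bound by NF-Y.

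Promoter windows of the module were searched for these elements. RefSeq windows of GRCh38.p14, from 250 bases before to 50 after the gene's start, matched 45 of the 53 genes, and FOXM1, AURKA, BIRC5, BUB3, TTK, UBE2C, TPX2 and FAM83D were not matched. The CHR letters TTTGAA or TTCGAA, read on both strands, stood in 34 of the 45 windows (75.6%), against 11.3% of 9810 windows of tested genes and 16.6% of 27305 windows in all. CCAAT, also on both strands, stood in 33 windows (73.3%), against 36.5% of those of tested genes and 35.7% of all. Both stood in 26 windows (57.8%), against 4.72% of those of tested genes and 6.58% of all. The E-box letters CACGTG and CATGTG, forms that MITF can bind, stood in 6 windows (13.3%: CCNB1, PLK1, CENPA, CENPE, CENPF and ANLN), against 16.5% of those of tested genes and 17.9% of all. Each match is a description of letters, not of a bound site.

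The 6 windows below show the letters of members that differed in their changes on the arrays. CCNB2, MAD2L1 and KIF23 were lower with siMITF and less so, or not, with THZ1, CENPA was the lowest member with THZ1, and CDC25B and KIF15 had the smallest changes with siMITF. Capitals mark CHR and CCAAT matches on either strand, and each window is read 5′ to 3′ on the gene's strand.
CCNB2 (chr15:59104896-59105195, + strand): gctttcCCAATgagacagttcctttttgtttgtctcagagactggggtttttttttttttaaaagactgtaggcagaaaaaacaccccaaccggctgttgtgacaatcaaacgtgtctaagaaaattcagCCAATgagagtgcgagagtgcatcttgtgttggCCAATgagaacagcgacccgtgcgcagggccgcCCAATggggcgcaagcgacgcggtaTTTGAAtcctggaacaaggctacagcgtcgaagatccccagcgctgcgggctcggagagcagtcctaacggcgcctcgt
MAD2L1 (chr4:120066799-120067098, - strand): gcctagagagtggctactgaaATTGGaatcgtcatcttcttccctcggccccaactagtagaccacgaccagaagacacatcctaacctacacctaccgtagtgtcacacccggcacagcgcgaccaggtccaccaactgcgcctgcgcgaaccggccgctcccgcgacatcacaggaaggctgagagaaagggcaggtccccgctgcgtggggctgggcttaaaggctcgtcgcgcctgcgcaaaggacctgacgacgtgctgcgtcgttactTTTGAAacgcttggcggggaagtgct
KIF23 (chr15:69414099-69414398, + strand): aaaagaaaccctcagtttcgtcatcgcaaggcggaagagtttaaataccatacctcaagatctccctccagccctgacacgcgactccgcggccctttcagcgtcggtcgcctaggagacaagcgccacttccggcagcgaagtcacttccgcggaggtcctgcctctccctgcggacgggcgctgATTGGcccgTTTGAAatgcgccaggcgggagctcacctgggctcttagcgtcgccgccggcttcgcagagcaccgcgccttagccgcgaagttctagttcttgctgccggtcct
CENPA (chr2:26785806-26786105, + strand): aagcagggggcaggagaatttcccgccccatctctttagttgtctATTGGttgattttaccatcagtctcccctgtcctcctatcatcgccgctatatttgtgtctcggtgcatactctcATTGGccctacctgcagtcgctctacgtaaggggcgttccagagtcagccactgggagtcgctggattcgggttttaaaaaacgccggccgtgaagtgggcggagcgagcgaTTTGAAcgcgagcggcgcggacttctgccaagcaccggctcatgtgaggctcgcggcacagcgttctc
CDC25B (chr20:3786701-3787000, + strand): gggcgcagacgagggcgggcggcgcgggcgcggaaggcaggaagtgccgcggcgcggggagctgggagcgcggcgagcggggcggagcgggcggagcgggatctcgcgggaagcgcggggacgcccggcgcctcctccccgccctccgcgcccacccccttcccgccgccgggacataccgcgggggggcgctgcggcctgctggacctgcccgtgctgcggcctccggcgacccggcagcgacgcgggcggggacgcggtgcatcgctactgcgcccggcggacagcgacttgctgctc
KIF15 (chr3:44761544-44761843, + strand): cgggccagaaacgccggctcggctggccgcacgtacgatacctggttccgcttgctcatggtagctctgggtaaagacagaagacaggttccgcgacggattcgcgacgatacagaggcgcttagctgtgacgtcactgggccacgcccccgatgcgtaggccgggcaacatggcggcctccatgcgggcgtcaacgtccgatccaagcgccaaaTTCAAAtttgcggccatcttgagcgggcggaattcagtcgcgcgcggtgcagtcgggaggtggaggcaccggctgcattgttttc
The CCNB2 window held 1 CHR and 4 CCAAT matches, that of CENPA 1 and 2, and those of MAD2L1 and KIF23 1 of each. The KIF15 window held 1 CHR match and no CCAAT, and the CDC25B window neither.

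**Figure D1:**
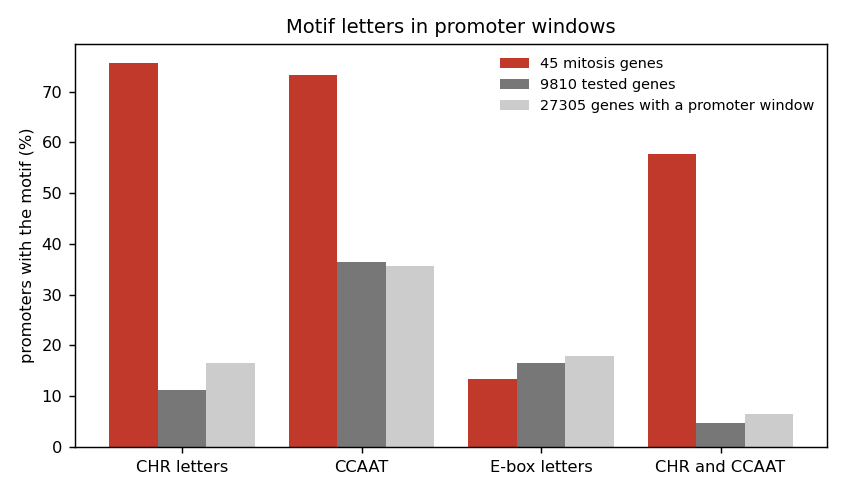
Share of promoter windows (%) that hold the CHR letters, CCAAT, the E-box letters, or both CHR and CCAAT, for 45 mitosis genes, 9810 tested genes and all 27305 genes with a window. The CHR bar of the mitosis genes stands at 75.6% against 11.3% of tested genes, while their E-box bar is at 13.3% against 16.5%.

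Signals are the authors' MAS5 values, normalized to cell number, so a change on that scale is called a change per cell. The median change of all 11947 tested genes was -0.63 on the log2 scale with siMITF and -0.16 with THZ1. Each change is therefore also given on a second scale, relative to the median gene, for which each array was shifted so that its tested genes deviated from their means by 0 at the median. In bulk RNA, fewer dividing cells and less mRNA per dividing cell cannot be told apart. Of 8 melanocyte lineage markers with a probe set, all 8 were above the filter, at mean signals from 191 to 8742. Of 5 keratinocyte, 6 fibroblast and 5 leukocyte markers with a probe set, 1, 2 and 1 were above it (KRT10, DCN and LUM, HLA-DRA), and COL1A1, COL1A2 and COL3A1 were below it. The summed fibroblast marker signal was 732 to 956 with siMITF against 1521 to 1845 with siCtrl, and 2642 to 3421 with THZ1 against 2347 to 2825 with DMSO. Most of that sum was LUM, with 810 and 613 on the siMITF arrays, against 1354 and 1639 on the siCtrl arrays. On the THZ1 arrays LUM had 2325 and 2983, against 2067 and 2476 on the DMSO arrays. Relative to the median gene, LUM changed by -0.43 and DCN by 0.20 with siMITF, and by 0.42 and 0.51 with THZ1. The melanocyte sum was 17519 to 21754 with siMITF against 27370 to 31436 with siCtrl. The keratinocyte sum was 339 to 395 against 518 to 618, and the leukocyte sum 84.5 to 110 against 94.8 to 113. In the melanocyte, keratinocyte and leukocyte sums the THZ1 and DMSO ranges overlapped. The part of these marker signals in the results was not tested. MITF itself had signals of 1747 and 1168 on the siMITF arrays, against 3436 and 3936 on the siCtrl arrays. Its log2 change with siMITF was -1.35 per cell (limma adjusted p = 1.62e-06). On the second scale the fall of MITF was smaller, with a change of -0.72 (SE 0.10, limma adjusted p = 0.000325).

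With siMITF the whole measured module was lower than with siCtrl. On the per-cell scale 52 of 52 members were lower (limma adjusted p from 2.88e-11 to 0.00941, n = 2 arrays per group throughout), where 63.4% of all tested genes were and 0.326% were higher. On the relative scale 49 of 52 were lower and 0 higher, where 24.7% of all tested genes were lower and 19.5% higher. The members' median was -1.32 on the per-cell scale and -0.69 on the relative one, and 2.66% of tested genes lay below that relative value. Among the 100 tested genes with the lowest relative change were 14 members, and among the lowest 500 were 33. The signals of both siMITF arrays lay below both siCtrl arrays for all 52 members, as they did for 89.0% of tested genes. After centring, this held for 51 of 52, against 38.0% of tested genes. The members were brighter than most genes, with a median signal of 297 against 166, and the 7976 tested genes in the members' signal range had a median relative change of -0.10. With each gene's own variance in place of limma's shared one, 48 members passed on the relative scale and 0 per cell (limma, lowest adjusted p = 0.0893, 51 at an unadjusted p under 0.05). Without siMITF replicate 2 or without siCtrl replicate 2, 48 members passed per cell, and CDC25B, CDC25C, KIF15 and SPC24 did not.

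**Figure D2:**
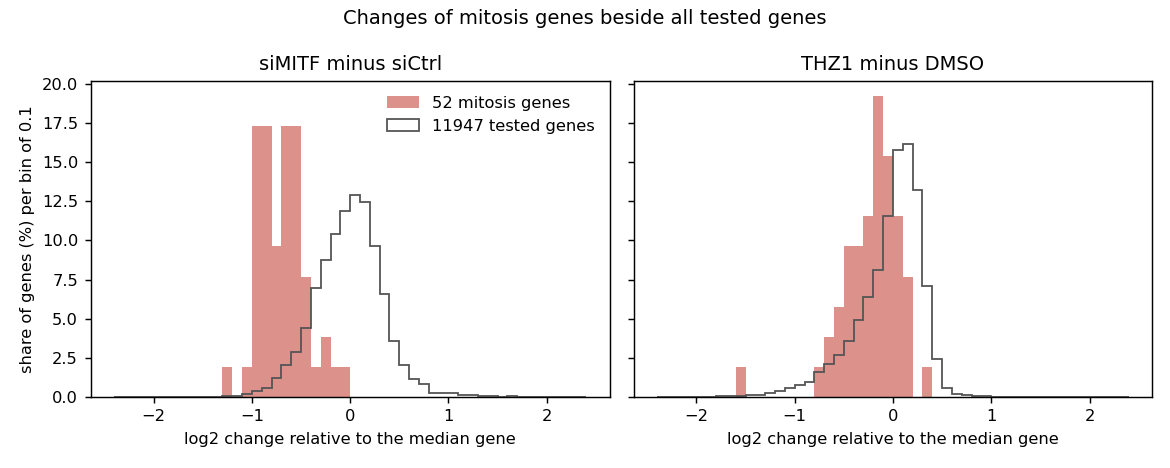
Distribution of log2 changes relative to the median gene in bins of 0.1, as a share of genes (%), for 52 mitosis genes (filled) and all 11947 tested genes (line), with siMITF minus siCtrl on the left and THZ1 minus DMSO on the right. The mitosis genes lie around a median of -0.69 with siMITF and of -0.17 with THZ1.

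Among the genes that start mitosis, 6 of 7 were lower relative to the median gene, where 24.7% of all tested genes were. CCNA2, which encodes cyclin A, had 143 and 107 on the siMITF arrays, against 376 and 437 on the siCtrl arrays, a relative change of -0.96 (SE 0.08, limma adjusted p = 2.86e-05). CCNB2, a cyclin B gene, had 271 and 223 on the siMITF arrays, against 610.0 and 920.3 on the siCtrl arrays, a relative change of -0.91 (SE 0.12, adjusted p = 0.000295). In neither gene did the groups overlap. CCNB1 had a relative change of -0.78, the kinase gene CDK1 -0.62, the transcription factor gene FOXM1 -0.59 and the phosphatase gene CDC25C -0.30, and all 4 passed, CDC25C not with an offset of 64 added to the signals before taking logs. CDC25B, a phosphatase that activates CDK1, had 579 and 439.9 on the siMITF arrays, against 744 and 938 on the siCtrl arrays. Its change of -0.71 per cell passed (adjusted p = 0.00941) and its relative change of -0.08 (SE 0.08) did not (adjusted p = 0.429), while under quantile normalization it was higher by 0.21 without centring (adjusted p = 0.0264) and by 0.19 with it (adjusted p = 0.0375).

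All 6 kinase and chromosomal passenger genes fell on both scales, where 63.4% of all tested genes did per cell and 24.7% on the relative scale. BIRC5, which encodes survivin, the passenger subunit that docks at the centromere, had 660.0 and 524 on the siMITF arrays, against 1690.2 and 1991 on the siCtrl arrays. Its groups lay apart, with a relative change of -0.98 (SE 0.07, limma adjusted p = 2.15e-05). CDCA8, the borealin gene of the same complex, had 114 and 89.3 on the siMITF arrays, against 296 and 383 on the siCtrl arrays, a relative change of -0.96. AURKB, the kinase of the complex, had -0.87, the spindle pole kinase AURKA -0.63, the scaffold gene INCENP -0.57 and PLK1 -0.44.

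The 5 checkpoint genes fell too on the relative scale, where 24.7% of all tested genes did. MAD2L1, whose product binds CDC20 to block anaphase, had 215 and 173 on the siMITF arrays, against 581 and 689 on the siCtrl arrays, a relative change of -1.002 (SE 0.10, limma adjusted p = 8.36e-05). BUB1B, the gene of the checkpoint protein BubR1, had 162 and 134 on the siMITF arrays, against 363 and 457 on the siCtrl arrays, a relative change of -0.74. The other checkpoint genes, TTK (-0.58), BUB1 (-0.56) and BUB3 (-0.50), had smaller estimates. Both siMITF arrays lay below both siCtrl arrays in all 5, as they did for 89.0% of tested genes. After centring this also held for all 5, against 38.0% of tested genes.

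Of the 3 measured anaphase genes ESPL1 and CDC20 fell, and the call for UBE2C varied with the arrays and settings used. ESPL1, which encodes separase, the protease that cuts cohesin, had 147 and 106 on the siMITF arrays, against 282 and 369 on the siCtrl arrays, a relative change of -0.63 (limma adjusted p = 0.000214). CDC20, the activator of the anaphase-promoting complex, had 308 and 245 on the siMITF arrays, against 564 and 708 on the siCtrl arrays, a relative change of -0.52. UBE2C, the ubiquitin-conjugating enzyme of that complex, had -0.40 (SE 0.11, adjusted p = 0.0132). The UBE2C call was lost without siMITF replicate 1, siMITF replicate 2 or siCtrl replicate 2, with adjusted p up to 0.0688, and also with an offset of 1, each gene's own variance or quantile normalization. Its other 3 probe sets, of similar brightness, had -0.68, -0.04 and -0.73.

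Of 7 centromere and kinetochore genes, 6 fell relative to the median gene, where 24.7% of all tested genes did. CENPA, the histone H3 variant that marks the centromere, had 339 and 275 on the siMITF arrays, against 762 and 954 on the siCtrl arrays, a relative change of -0.80 (SE 0.07, limma adjusted p = 4.31e-05). The NDC80 complex, which binds microtubules, passed in 3 of its 4 subunits: SPC25 had -0.71, NUF2 -0.68 and NDC80 -0.67. SPC25 signals were 104 and 77.0 on the siMITF arrays, against 223 and 283 on the siCtrl arrays. The other subunit gene, SPC24, had 67.8 and 58.5 on the siMITF arrays, against 115 and 137 on the siCtrl arrays. Its relative change of -0.21 (SE 0.08) did not pass (adjusted p = 0.0717). The SPC24 arrays did not overlap on either scale, and 89.0% of tested genes lay apart as lower on deposited signals and 38.0% after centring. CENPE, a kinetochore motor, had -0.60 and CENPF -0.51.

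Of 10 kinesins, 9 fell relative to the median gene, where 24.7% of all tested genes did. KIF23, a motor of the central spindle, had 146 and 114 on the siMITF arrays, against 379 and 461 on the siCtrl arrays, a relative change of -0.95 (SE 0.07, limma adjusted p = 2.15e-05). KIF2C, which depolymerises microtubules to correct attachment errors, had 216 and 167 on the siMITF arrays, against 522 and 672 on the siCtrl arrays, a relative change of -0.93. KIF11, the motor that separates the spindle poles, had -0.80, and the other 6 that passed lay between -0.69 for KIF20A and -0.47 for KIF22. KIF15, which can stand in for KIF11 in holding the poles apart, was the dimmest member. It had 61.1 and 43.6 on the siMITF arrays, against 92.3 and 106 on the siCtrl arrays, and its relative change of -0.13 (SE 0.10) did not pass (adjusted p = 0.332).

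FAM83D, a spindle protein that recruits casein kinase, had the largest fall of the module with siMITF. The FAM83D signals were 227 and 184 on the siMITF arrays, against 669.6 and 954 on the siCtrl arrays. The groups did not overlap, and the log2 change was -1.89 per cell (SE 0.25, 3.70-fold lower, limma adjusted p = 2.88e-11), and the relative change -1.25 (SE 0.09, adjusted p = 1.92e-05). The other 5 spindle assembly genes fell as well on the relative scale, where 24.7% of all tested genes did. DLGAP5, a microtubule-binding protein of the spindle, had 147 and 107 on the siMITF arrays, against 362 and 412 on the siCtrl arrays, a relative change of -0.88. TPX2, which activates Aurora A on the spindle, had -0.86, HMMR -0.82, NUSAP1 -0.81 and ASPM, a spindle pole protein, -0.76.

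The 3 genes of cytokinesis and 5 of chromosome condensation were all lower on the relative scale, where 24.7% of all tested genes were. ANLN, the contractile ring scaffold anillin, had 333 and 228 on the siMITF arrays, against 782 and 936 on the siCtrl arrays, a relative change of -0.95. ECT2, the exchange factor that activates RhoA at the cleavage site, had 155 and 98.6 on the siMITF arrays, against 346 and 459 on the siCtrl arrays, a relative change of -0.93. PRC1, which bundles the central spindle, had -0.89. Of the condensin subunits, SMC2 had 165 and 119 on the siMITF arrays, against 409.8 and 532 on the siCtrl arrays, a relative change of -0.99 (SE 0.11, limma adjusted p = 0.000122). The other 6 SMC2 probe sets had smaller falls, from -0.77 to -0.20. NCAPG had 268 and 209.5 on the siMITF arrays, against 645 and 779 on the siCtrl arrays, a relative change of -0.88, while SMC4 had -0.62. NCAPH had -0.74, but its 2 dimmer probe sets had 0.18 and 0.20, and the call was lost with the mean of the probe sets. TOP2A, the topoisomerase that untangles sister chromatids, had -0.35, and its 2 dimmer probe sets had -0.58 each.

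**Figure D3:**
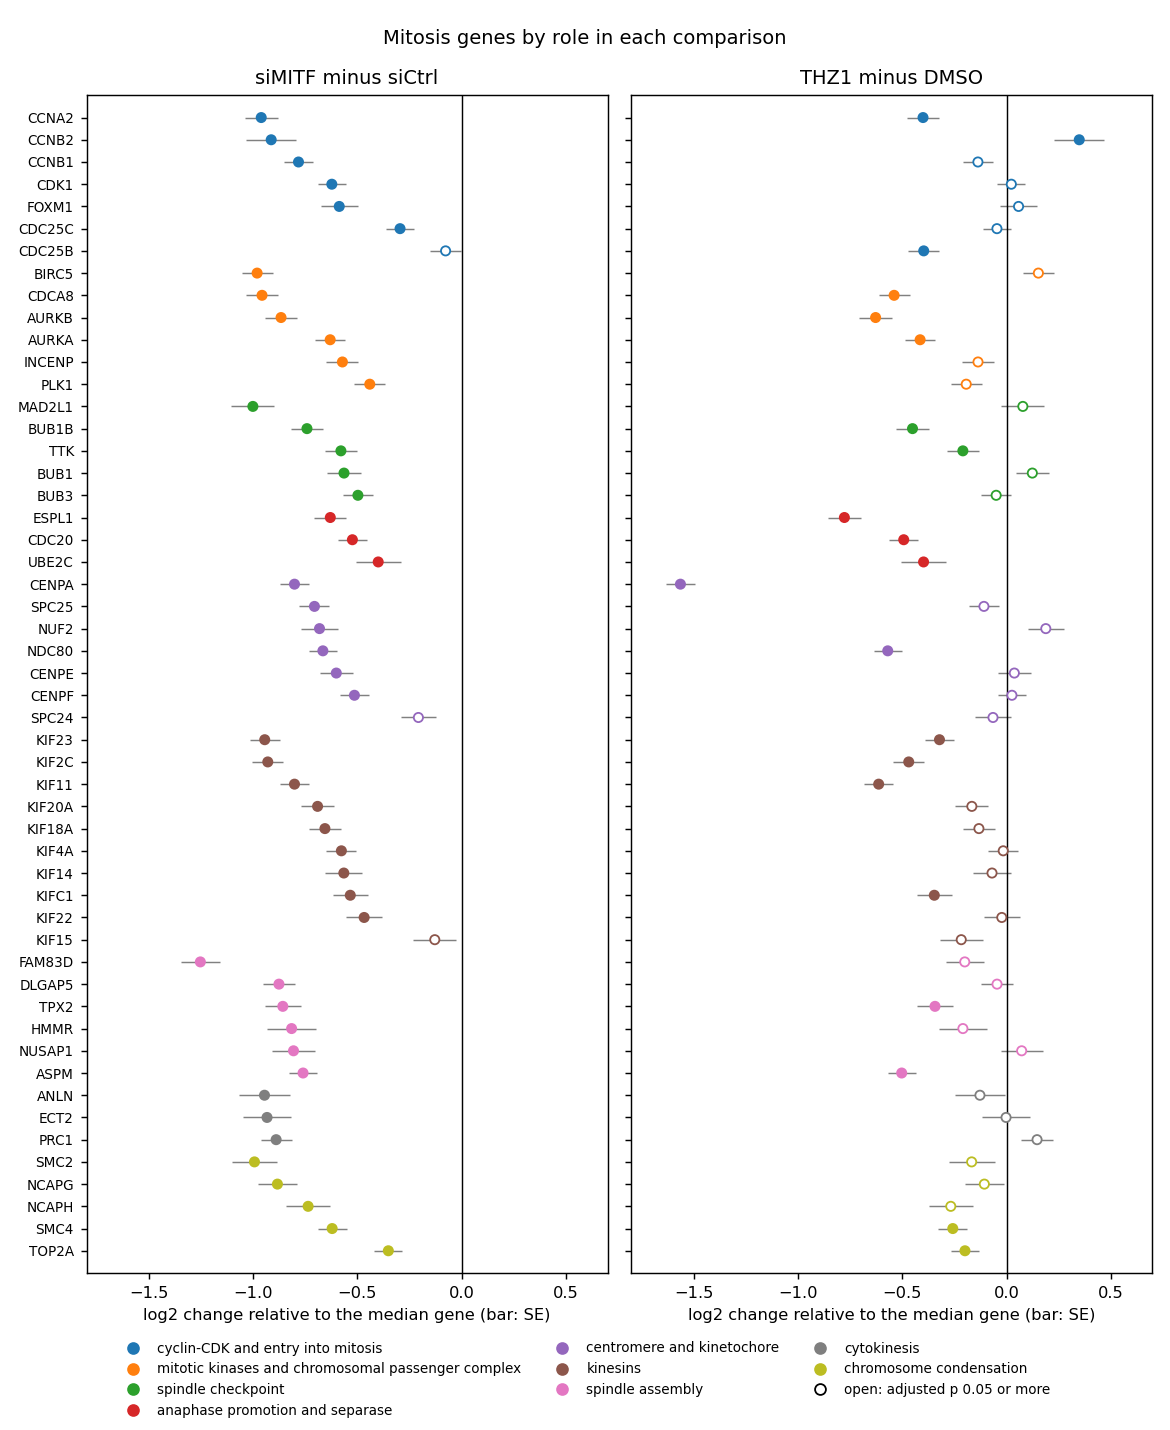
Log2 change relative to the median gene of each of 52 mitosis genes, sorted by role, with siMITF minus siCtrl on the left and THZ1 minus DMSO on the right. Points are limma estimates from 2 arrays per group and bars their SE, and open points did not pass at an adjusted p of 0.05. On the left 49 points are filled and all 52 lie below 0. On the right 21 are filled, of which 20 lie below 0 and CCNB2 above.

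With THZ1 fewer members passed as lower than with siMITF, and CENPA stood far below the rest. Per cell, 8 of 52 members fell and 0 rose (AURKB, CDCA8, CDC20, ESPL1, CENPA, NDC80, KIF11 and ASPM), where 10.0% of all tested genes fell and 0.0753% rose. Relative to the median gene 20 of 52 were lower and 1 higher, where 21.1% of all tested genes were lower and 17.7% higher. The members' median was -0.37 on the per-cell scale and -0.17 on the relative one, and 26.8% of tested genes lay below that relative value. Among the 100 tested genes with the lowest relative change was 1 member, CENPA. The THZ1 and DMSO arrays lay apart, in either direction, for 29 of 52 members on deposited signals and for 38 after centring. Of all tested genes 30.0% lay apart as lower and 0.871% as higher on deposited signals. After centring these shares were 32.0% and 38.0%. The per-cell calls rested on single arrays: without THZ1 replicate 1 or without DMSO replicate 2 the count was 1, CENPA, and without THZ1 replicate 2 it was 18. With each gene's own variance 0 members passed per cell (limma, lowest adjusted p = 0.268, 9 at an unadjusted p under 0.05), and on the relative scale 16 passed.

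CENPA had signals of 221 and 306 on the THZ1 arrays, against 804 and 1060.4 on the DMSO arrays. The groups lay far apart, and the log2 change was -1.76 per cell (SE 0.25, 3.40-fold lower, limma adjusted p = 5.13e-10), and the relative change -1.56 (SE 0.07, adjusted p = 1.8e-06). The 3 other CENPA probe sets had relative changes of -1.68, -1.60 and -0.59. NDC80, the other gene of the centromere and kinetochore group that fell, had 124 and 175 on the THZ1 arrays, against 239 and 289.8 on the DMSO arrays, a relative change of -0.57 (adjusted p = 0.000176). Its partner NUF2, named here after its values were seen, had 201 and 289 on the THZ1 arrays, against 214 and 276 on the DMSO arrays. These deposited signals overlapped, while on the relative scale the THZ1 arrays lay above, as for 38.0% of tested genes. The relative change of NUF2 was 0.19 (adjusted p = 0.112), which passed as higher under quantile normalization (0.24, adjusted p = 0.0277).

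Of the measured anaphase genes ESPL1 and CDC20 fell on the relative scale, and UBE2C did so in its brightest probe set. ESPL1 had 105 and 143 on the THZ1 arrays, against 233 and 285 on the DMSO arrays, a relative change of -0.78 (SE 0.08, limma adjusted p = 5.58e-05). A second ESPL1 probe set, below the filter on dim signals, had 0.20. CDC20 had 379 and 499 on the THZ1 arrays, against 641 and 793 on the DMSO arrays, a relative change of -0.49 (adjusted p = 0.000439), while its other probe sets had -0.23 and, below the filter, 0.19. UBE2C had -0.40 (adjusted p = 0.0156), a call that was lost without THZ1 replicate 1 or DMSO replicate 1, with adjusted p up to 0.121, and with own variance or the mean of the probe sets. Its other 3 probe sets, of similar brightness, had -0.07, 0.08 and -0.03.

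In the kinase and passenger group 3 of 6 fell relative to the median gene, where 21.1% of all tested genes did. AURKB had 319.9 and 439.6 on the THZ1 arrays, against 601 and 765 on the DMSO arrays, a relative change of -0.63 (SE 0.08, limma adjusted p = 0.000234). CDCA8 had 146 and 215 on the THZ1 arrays, against 278 and 339 on the DMSO arrays, a relative change of -0.54 (adjusted p = 0.000426). In both the THZ1 arrays lay below the DMSO arrays, as for 30.0% of tested genes on deposited signals. BIRC5, of the same passenger complex, had 1503 and 1953 on the THZ1 arrays, against 1676 and 1871 on the DMSO arrays. Its deposited signals overlapped, while on the relative scale the THZ1 arrays lay above, as for 38.0% of tested genes. The relative change of BIRC5 was 0.15 and did not pass (adjusted p = 0.131). AURKA fell relative to the median gene (-0.41), and INCENP (-0.14) and PLK1 (-0.19) did not pass.

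KIF11 had the largest fall among kinesins, with 246 and 344 on the THZ1 arrays, against 474 and 579 on the DMSO arrays, a relative change of -0.61 (SE 0.07, limma adjusted p = 0.000119). KIF2C (-0.47), KIFC1 (-0.35) and KIF23 (-0.32) also fell relative to the median gene, and the other 6 kinesins, with changes from -0.22 to -0.02, did not pass. The second probe set of KIF23 had 0.02, and the KIF23 call was lost with the mean of both. ASPM had 204 and 284 on the THZ1 arrays, against 354 and 457 on the DMSO arrays, a relative change of -0.50 (adjusted p = 0.000371), and TPX2 had -0.34 (adjusted p = 0.0121). FAM83D had 525 and 769 on the THZ1 arrays, against 768 and 927 on the DMSO arrays. Its deposited signals overlapped, while on the relative scale the THZ1 arrays lay below, as for 32.0% of tested genes. The relative change of FAM83D, -0.20, did not pass (adjusted p = 0.11).

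Among the checkpoint genes BUB1B fell (-0.45), and TTK was at the threshold (-0.21, limma adjusted p = 0.0497), a call that passed in 0 of 8 fits that left out an array and was lost in 6 of the other settings. MAD2L1 had 502 and 838 on the THZ1 arrays, against 670.1 and 747 on the DMSO arrays. The MAD2L1 arrays overlapped, and its relative change was 0.08 (adjusted p = 0.575). Its other probe sets had -0.07, -0.40 and, below the filter, 0.02. KIFC1 and TPX2 each passed in 7 of those 8, being lost without DMSO replicate 2 and DMSO replicate 1, and both were lost with own variance. In the condensation group SMC4 (-0.26) and TOP2A (-0.20) passed, and did so in 5 and 1 of those 8 fits. Both calls were lost with no filter on dim genes, that of TOP2A also with the replicate block or only the drug arrays, and that of SMC4 also with the mean of its probe sets. The other 3 SMC4 probe sets had 0.04, 0.17 and -0.20. Of the 3 cytokinesis genes 0 passed, with relative changes from -0.13 for ANLN to 0.15 for PRC1.

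Among the genes that start mitosis, CCNA2 and CDC25B fell with THZ1 on the relative scale and CCNB2 was higher. CCNA2 had 191 and 231 on the THZ1 arrays, against 286 and 374 on the DMSO arrays, a relative change of -0.40 (SE 0.08, limma adjusted p = 0.00331), and a second probe set had -0.69. CDC25B had 396 and 509 on the THZ1 arrays, against 600.4 and 787 on the DMSO arrays, a relative change of -0.40 (SE 0.08, adjusted p = 0.00279). In both genes the THZ1 arrays lay below the DMSO arrays, as for 30.0% of tested genes on deposited signals. CCNB2 had 506 and 704 on the THZ1 arrays, against 434 and 662 on the DMSO arrays. Per cell these arrays overlapped (log2 change 0.15, adjusted p = 0.931), while on the relative scale CCNB2 was higher by 0.35 (SE 0.12, adjusted p = 0.0422). That call passed in 3 of 8 fits without 1 array, with adjusted p up to 0.263, and was lost without either siMITF array, either THZ1 array or DMSO replicate 1, and with no filter, own variance, quantile normalization or only the drug arrays. CCNB1 had -0.14, CDC25C -0.05, CDK1 0.02 and FOXM1 0.06, and these 4 did not pass.

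**Figure D4:**
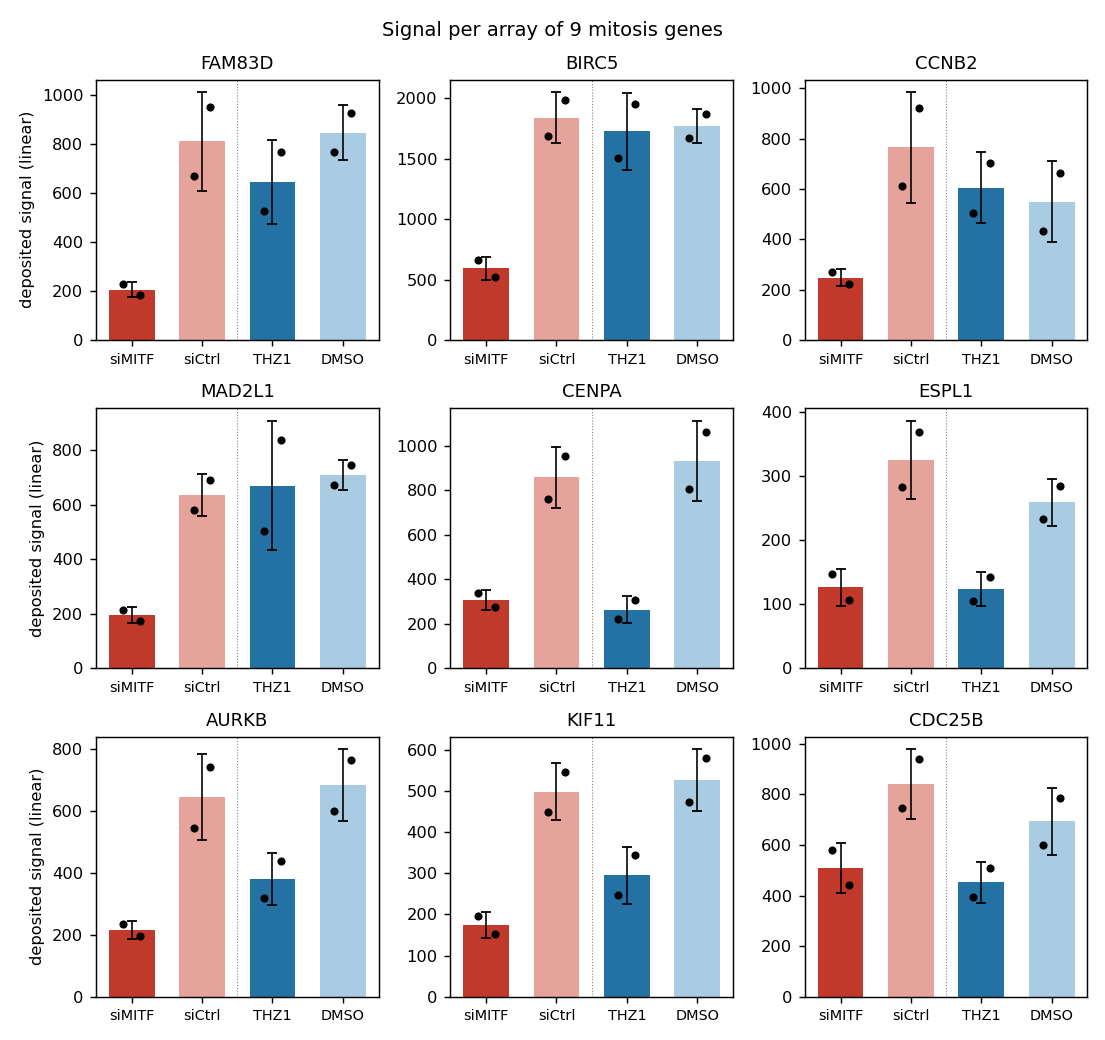
Deposited signal (linear scale) of 9 mitosis genes in the siMITF, siCtrl, THZ1 and DMSO groups. Points are the 2 arrays of a group, bars their mean and whiskers the SD. In each of the 9 panels both siMITF points lie below both siCtrl points, as they do for 89.0% of tested genes. With THZ1 both lie below DMSO in CENPA, ESPL1, AURKB, KIF11 and CDC25B, as they do for 30.0% of tested genes. The THZ1 and DMSO ranges overlap in FAM83D, BIRC5, CCNB2 and MAD2L1.

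The change with THZ1 and the change with siMITF were compared directly as a difference of effects in the same model. On the relative scale it passed for 37 of 52 members, where 41.6% of all tested genes passed. For 35 of them the THZ1 change was the higher, where 21.4% of all tested genes were, and for 2, CENPA and CDC25B, it was the lower, where 20.2% were. The 4 members with the lowest p were BIRC5 (difference 1.13, SE 0.11, limma adjusted p = 5.57e-05), PRC1 (1.04, adjusted p = 9.14e-05), FAM83D (1.05, adjusted p = 0.000257) and DLGAP5 (0.83, adjusted p = 0.000295). PRC1 had 823 and 1170.4 on the THZ1 arrays, against 895 and 1160.0 on the DMSO arrays, and DLGAP5 had 241 and 314 on the THZ1 arrays, against 299.9 and 361 on the DMSO arrays. In both these genes the deposited THZ1 and DMSO signals overlapped. On the relative scale the THZ1 arrays lay above in PRC1, as for 38.0% of tested genes, and below in DLGAP5, as for 32.0%. CCNB2 had the largest difference (1.26, SE 0.17, adjusted p = 0.000388).

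In CENPA the THZ1 change was lower than the siMITF change by 0.76 on the log2 scale (a difference of -0.76, limma adjusted p = 0.000371). The difference of CDC25B was -0.32 (adjusted p = 0.0354), and it passed in 3 of 8 fits without 1 array, being lost without siMITF replicate 1, siCtrl replicate 1, THZ1 replicate 2 or either DMSO array. The CDC25B call was also lost with an offset of 64, no filter, the mean of the probe sets or own variance. The anaphase genes ESPL1 (-0.15), CDC20 (0.03) and UBE2C (0.0023) had differences that did not pass, with SE of 0.11, 0.10 and 0.15. Per cell the THZ1 change was the higher for 23 members, where 9.84% of tested genes were, and the lower for 0, where 0.946% were. ERCC spike-in signals differed between the drug arrays (medians of 53.9 and 50.6 with THZ1 and 53.7 and 48.0 with DMSO) and the siRNA arrays (27.6 and 30.7 with siMITF and 28.5 and 28.7 with siCtrl), and their part in the differences was not tested. Across the 52 members the 2 sets of relative changes had a Pearson r of 0.03 (Spearman rho 0.02), a description over genes measured on the same arrays. Across all 11947 tested genes these were 0.04 and 0.04, so the low correlation is not particular to the members.

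**Figure D5:**
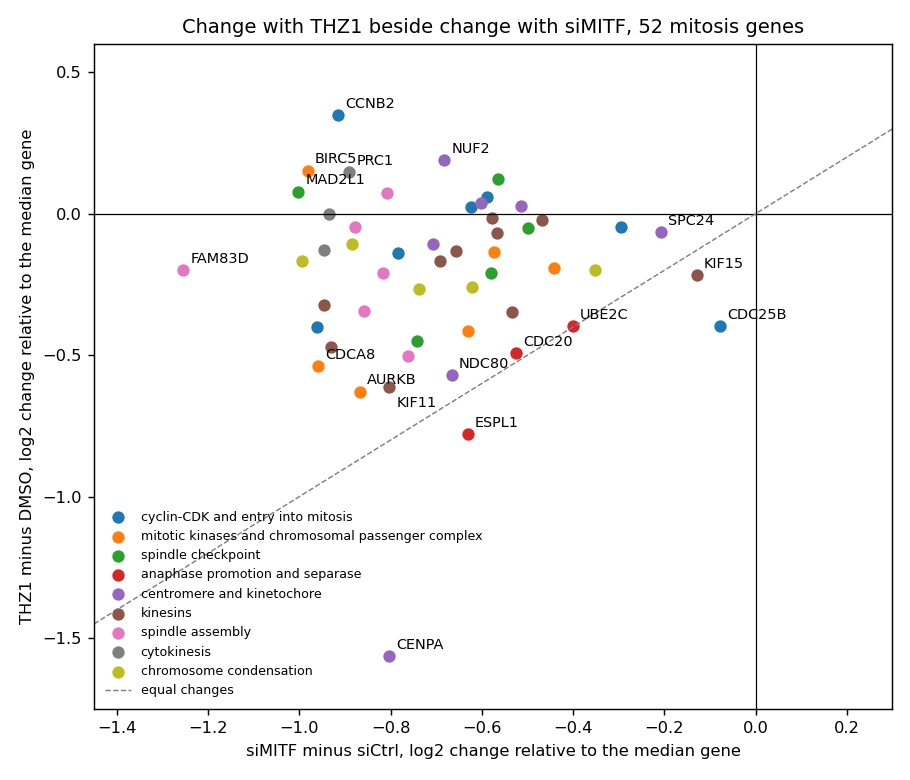
Log2 change relative to the median gene with THZ1 (vertical) against that with siMITF (horizontal) for 52 mitosis genes, coloured by role, with a dashed line of equal changes. Above the line lie 48 genes, CENPA lies far below it at -0.80 and -1.56, and ESPL1, CDC25B and KIF15 lie below it as well.

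The members with and without CHR letters had similar medians. The 34 with them had a median relative siMITF change of -0.69, and the 10 tested members without had -0.71. With THZ1 the medians were -0.13 with and -0.22 without. The windows of CENPA and CCNB2, the lowest and the highest member with THZ1, both held CHR and CCAAT letters.

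Other genes of mitosis were taken from a list of 112 that holds no member. With siMITF 70 of 111 tested genes were lower relative to the median gene (63.1%, where 24.7% of all tested genes were). On that scale 3 were higher (2.70%, where 19.5% were), and the median was -0.34. Per cell 104 were lower (93.7%, where 63.4% were). With THZ1 39 were lower (35.1%, where 21.1% of all tested genes were) and 5 higher (4.50%, where 17.7% were), with a median of -0.15. Per cell 24 were lower with THZ1 (21.6%, where 10.0% were) and 0 higher, where 0.0753% were. Other centromere and kinetochore genes fell in 23 of 28 cases with siMITF on the relative scale (82.1%, where 24.7% of all tested genes did). CENPN, which binds the CENPA nucleosome, fell the most of these (-1.01). CDCA5, which encodes the cohesion protector sororin, had 189 and 178 on the siMITF arrays, against 588 and 723 on the siCtrl arrays, a relative change of -1.11 (limma adjusted p = 2.2e-05). PLK4, the kinase that starts centriole duplication, had -0.87. Of 17 genes of the anaphase-promoting complex and its partners 10 were lower with siMITF on the relative scale (58.8%, where 24.7% of all tested genes were). None was higher, where 19.5% were, and their median was -0.25.

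Of 12 genes of MuvB, DREAM and B-MYB, which control such promoters, 3 passed as lower (25.0%, where 24.7% of all tested genes did) and 1 as higher (8.33%, where 19.5% did) on the relative scale with siMITF. B-MYB gene MYBL2 had -0.94, TFDP1 -0.49 and RBBP4 -0.31, whereas RBL2, the pocket protein p130 of DREAM, had 0.37 (limma adjusted p = 0.00287). RBL2 signals were 91.4 and 68.8 on the siMITF arrays, against 86.0 and 113 on the siCtrl arrays, so they overlapped on the deposited scale. With THZ1 6 of the 12 were lower, where 21.1% of all tested genes were. E2F5, a repressor E2F, had 72.9 and 136 on the THZ1 arrays, against 422 and 494 on the DMSO arrays, a relative change of -1.82 (SE 0.12, adjusted p = 7.47e-06), and the MuvB genes LIN37 (-0.75), LIN9 (-0.55) and LIN52 (-0.50) fell as well, with E2F4 (-0.38) and TFDP1 (-0.26).

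MAU2, which helps load cohesin, had 55.5 and 80.2 on the THZ1 arrays, against 209.9 and 264 on the DMSO arrays, a relative change of -1.40 (limma adjusted p = 5.34e-06), and its other probe sets had -0.29 and -1.29. With siMITF it had a higher relative level, by 0.45 (adjusted p = 0.00268), and its other probe sets had -0.04 and 0.41. NDE1, a dynein regulator, had a relative change of -1.03 with THZ1. The differences of effects with the lowest p were those of MAU2 (-1.85), E2F5 (-2.13) and CENPN (1.10). Higher relative to the median gene with THZ1 were NEK7 (0.77), ANAPC11 (0.33), CENPW (0.28), ANAPC5 (0.26) and the cargo kinesin gene KIF5B (0.25), and with siMITF NEK9 (0.35). None of these passed as higher per cell. The CENPN probe set used had a relative THZ1 change of 0.09. Its other probe sets above the filter had -0.31, -0.53, -0.59 and -0.47, and a dim one below the filter had 0.20.

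Probe sets of a gene did not always agree in sign. Of the 52 members 35 had more than 1 probe set, 79 others in all. With siMITF 10 of the 79 had the opposite sign to the brightest on the relative scale, and 8 of these were below the filter on dim signals. With THZ1 26 had the opposite sign, 4 of them below the filter.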

How the data were processed

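RNA of SK-MEL-5 cells was measured on 8 Affymetrix arrays. The deposited signal (intensity) values are linear and were summarised by the authors with MAS5, per the submitters' processing notes, which name no version. Per the series' design text and the labels' protocols, values were normalized to cell number, ERCC control RNA was spiked in by cell number, and 100 ng of RNA went on each array. The calculation behind that normalization is not given in the sources used here. Signals were taken to log2 after adding 16. Of 49495 probe sets 45278 carried a sole gene symbol, updated by gene ID for 45208 of them from a GRCh38.p14 gene table. The probe set with the highest mean log2 signal stood for its gene. A gene was tested if that mean reached the 40th percentile of the probe sets, a signal of 39.2.

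limma 3.58.1 (R 4.3.3) was fitted over all 8 arrays with a mean per group and empirical Bayes variances, and p-values were adjusted by Benjamini-Hochberg over 11947 genes with a threshold of 0.05. The code was tested on simulated data. On the relative scale, the median deviation of tested genes was removed from each array. On the per-cell scale limma's prior degrees of freedom were infinite, so all genes had an SE of 0.25 that was treated as exactly known, and small p-values there are overstated. Whether the arrays of a group are separate cultures is not in the labels, so tests reflect the variation between these arrays alone. Shared replicate numbers were checked for pairing through correlated deviations (-0.18 for siRNA arrays, 0.11 for drug arrays). Members, lists and tests were chosen with earlier results of these data known, and the E-box search after the knockdown results were seen.

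The rule for named genes took the 2 largest siMITF changes per role, the 3 largest and 3 smallest over all members, those that passed with THZ1 per cell, the 4 largest falls and all rises with THZ1 on the relative scale, the 4 lowest p of the difference, untested members, and, from the other mitosis genes, the 3 lowest p per comparison and all that were higher. Other genes in the text were named after their values were seen. Alternatives changed the offset, the filter, the probe set rule, the variance, the normalization (quantile), a replicate block, the arrays fitted together, and each array in turn.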

Additional observations from a re-analysis of the deposited data

How the results depend on the processing

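Relative to the median gene, the count of 49 members lower with siMITF ranged from 48 to 50 over the alternatives, and the count of 20 lower with THZ1 from 16 to 21. The 37 members with a different change ranged from 33 to 39. Per cell, the 52 lower with siMITF became 0 with each gene's own variance and lay between 48 and 52 otherwise. The 8 lower per cell with THZ1 became 0 with own variance, 21 with quantile normalization and 4 with only the drug arrays, and ranged from 1 to 18 when 1 array was left out. Fits without 1 array assume that the lone array of a group varies like the other groups. Depth is not defined for arrays, and 2 arrays per group limit the precision.

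Same-numbered siRNA arrays had deviations with a correlation of -0.18 and same-numbered drug arrays of 0.11, so the numbers were not taken to pair the arrays. With the replicate number as a block 52 members were lower with siMITF and 8 with THZ1 per cell, the relative counts were 49 and 18, and 37 had a different change. With the siRNA numbers crossed, a setting added after seeing the data, the siMITF counts were 52 per cell and 50 on the relative scale.

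Some relative changes turned sign, and the cause was not tested. With THZ1 these were, under quantile normalization, BIRC5 (-0.0160), DLGAP5 (0.0211), ECT2 (0.0192) and CENPN (-0.0151). With the mean of a gene's probe sets they were MAD2L1 (-0.12), ANLN (0.0280), ECT2 (0.0175), SMC2 (0.0513), SPC24 (0.0609) and CENPN (-0.29), and CENPN then passed as lower (limma adjusted p = 0.00682). With an offset of 1 ECT2 had 0.00446. Leaving out 1 array gave -0.0828 to 0.24 for MAD2L1, -0.30 to 0.0442 for ANLN, -0.10 to 0.10 for ECT2, -0.34 to 0.00403 for SMC2, -0.22 to 0.0138 for NCAPG and -0.16 to 0.0370 for SPC24. With siMITF, CDC25B had 0.00721 with an offset of 1 and 0.19 under quantile normalization, where it passed as higher (limma adjusted p = 0.0375). KIF5B had 0.0966 under quantile normalization. ANAPC11 had 0.0737 with an offset of 1, 0.0670 under quantile normalization, and -0.0570 to 0.00792 when 1 array was left out.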
